A study of Mus musculus with 6 samples.

Results

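Meiotic prophase genes encode the proteins that pair, break and recombine chromosomes before the first meiotic division. A set of 33 such genes was named for mouse, and all 33 were found among the 31384 genes of the deposited count table by their symbols. Of these, 32 passed the filter on low counts that left 16121 genes tested, and Meikin did not. By role the 32 tested genes were 7 of the synaptonemal complex, 2 HORMA-domain proteins of the chromosome axis, 4 meiotic cohesin subunits, 5 of double-strand break formation, 4 of strand exchange and repair, 5 of crossover formation, 3 of telomere attachment and 2 RNA regulators of meiotic entry.

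As background, meiotic cohesins first build an axis along each chromosome, SPO11 and its partners break the DNA on it, and recombinases use the breaks to pair homologous chromosomes. The synaptonemal complex then joins the paired axes, and crossover factors turn some of the breaks into exchanges. Spermatogonial stem cells divide by mitosis, and in the testis most of these proteins appear only after retinoic acid has driven the cells through differentiation to meiotic entry, although transcripts of several of them are present earlier.

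The cells were a mouse spermatogonial stem cell line kept on mouse embryonic fibroblasts whose division mitomycin C had blocked, and RNA was sequenced from 2 libraries of each of 3 groups. In the LOVA group 5 µM lovastatin, a statin that inhibits cholesterol synthesis, stood in for the growth factor GDNF. The NTC group had neither agent, and the PTC group had 10 ng/mL recombinant rat GDNF, which sustains self-renewal of these stem cells. All 3 groups received 10 ng/mL EGF, 5000 U LIF and 10 ng/mL FGF2, and all were collected on day 18. Strain and genotype are not given in the labels, 1 line was used, and it is not stated that both libraries of each group were grown apart, so a p measures only the spread between these libraries. They are called A and B after the deposited columns.

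Totals ran from 12454671 to 22668087 counts per library, and the limit that a count of 0 allows, 3 counts, came to 0.128 to 0.258 CPM (counts scaled to a common total, here always by TMM) depending on the library, for counting error only. Defining genes of undifferentiated spermatogonia were present in every library, among them Gfra1, the GDNF co-receptor, at 60.0 and 63.8 CPM in LOVA A and B, 46.3 and 55.0 CPM in NTC and 97.0 and 66.1 CPM in PTC. Ret, the signalling receptor for GDNF, had 105 and 64.4 CPM in LOVA, 68.2 and 54.0 CPM in NTC and 291 and 199 CPM in PTC, and was lower in NTC than in PTC (log2 fold change -2.00, SE 0.31, edgeR adjusted p = 0.010) and lower in LOVA than in PTC (-1.53, SE 0.30, adjusted p = 0.019). The feeder fibroblast list, with 22 of 22 genes tested and none at 0 in any group, took 1.59% of counts in LOVA A, 3.02% in LOVA B, 1.77% in NTC A, 2.98% in NTC B, 0.158% in PTC A and 0.657% in PTC B. The macrophage list, with 12 of 12 genes tested and none at 0 in any group, took 0.0432% and 0.0516% in LOVA, 0.194% and 0.246% in NTC and 0.0290% and 0.0248% in PTC. The germ cell list, with 22 of 22 tested and none at 0, took 0.292% and 0.152% in LOVA, 0.244% and 0.171% in NTC and 0.451% and 0.462% in PTC. In such bulk RNA, fewer germ cells and less RNA per germ cell cannot be told apart.

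The promoters of the meiotic prophase genes are shown first because some sequence motifs recur in part of them. In mouse embryonic stem cells the repressor complex PRC1.6 is known to hold meiotic genes silent through MGA and MAX, which bind the E-box CACGTG, and E2F6, which binds TCCCGC. RefSeq promoter windows of GRCm38.p6, each 300 bases from 250 before the start base to 50 from it on, were found for 26 of the 33 genes, as 31 windows. In 5 genes there were several windows, nearly the same in Hormad1, and each window was counted. CACGTG stood in 9 of the 31 windows (29%), against 7.15% of all 32851 RefSeq windows, and TCCCGC, searched like every motif here on both strands, in 20 (64.5%) against 20%. CNCCTCAG, the motif reported for STRA8 and MEIOSIN, stood in 6 windows (19.4%, against 7.94%), and TAACGG, the MYBL1 motif, in 4 (12.9%, against 2.76%). The windows of meiotic genes held a median of 18 CpG, against 7 for all windows, and among the 11378 windows with at least 15 CpG the shares were 11.3%, 45.4%, 9.71% and 4.07% in the order of the motifs just given, where the 23 meiotic windows had 8, 18, 6 and 3 matches. A match is a run of letters and was not tested as a bound site.

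By gene, CACGTG stood in 8 of the 26, TCCCGC in 17, CNCCTCAG in 6 and TAACGG in 4. Both CACGTG and TCCCGC were held by 8, namely Sycp1, Sycp3, Syce2, Tex12, Hormad1, Stag3, Rec114 and Rnf212. None of the 4 motifs was found for Sycp2, Syce1, Rad21l, Mei1, Mei4 and Mlh3. The Mei1 window, at chr15:82082226-82082525 on the plus strand, lies inside the gene, whose GENCODE start is 82069996. Windows of Rec114, Hsf2bp, Meioc and Msh4 also lie inside their GENCODE genes. For these genes the sequence at the GENCODE start was not searched. TCCCGC and CNCCTCAG share letters where they overlap in Syce2 and Prdm9. Windows of 4 genes are printed 5′ to 3′ on the strand of the gene, with matches to the 4 motifs in capitals. Stag3 was chosen as the most abundant of the genes per length, Sycp1 and Sycp2 as those called higher in both groups without GDNF when libraries were scaled to germ cell genes, and Sycp3 for its pair of E-boxes. They are Stag3 at chr5:138280259-138280558 on the plus strand, Sycp3 at chr10:88459337-88459636 on the plus strand, Sycp1 at chr3:102936051-102936350 on the minus strand and Sycp2 at chr2:178407609-178407908 on the minus strand.
Stag3: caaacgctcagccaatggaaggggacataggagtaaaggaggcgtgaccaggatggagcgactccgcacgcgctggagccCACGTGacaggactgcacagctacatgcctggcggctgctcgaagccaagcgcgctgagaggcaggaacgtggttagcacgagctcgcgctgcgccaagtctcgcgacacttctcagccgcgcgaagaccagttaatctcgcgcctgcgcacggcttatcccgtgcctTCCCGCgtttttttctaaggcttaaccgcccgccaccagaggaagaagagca
Sycp3: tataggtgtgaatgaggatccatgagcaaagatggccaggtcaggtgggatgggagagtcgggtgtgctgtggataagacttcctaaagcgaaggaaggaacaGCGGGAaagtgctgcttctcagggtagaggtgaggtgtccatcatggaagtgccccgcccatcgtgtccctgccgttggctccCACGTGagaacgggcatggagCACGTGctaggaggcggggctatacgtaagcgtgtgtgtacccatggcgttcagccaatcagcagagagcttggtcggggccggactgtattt
Sycp1: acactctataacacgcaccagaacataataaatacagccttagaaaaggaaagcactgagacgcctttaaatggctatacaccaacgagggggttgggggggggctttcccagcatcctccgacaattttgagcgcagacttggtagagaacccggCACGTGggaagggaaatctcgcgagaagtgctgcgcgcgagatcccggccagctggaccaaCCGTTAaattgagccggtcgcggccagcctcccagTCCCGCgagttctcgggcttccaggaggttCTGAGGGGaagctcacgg
Sycp2: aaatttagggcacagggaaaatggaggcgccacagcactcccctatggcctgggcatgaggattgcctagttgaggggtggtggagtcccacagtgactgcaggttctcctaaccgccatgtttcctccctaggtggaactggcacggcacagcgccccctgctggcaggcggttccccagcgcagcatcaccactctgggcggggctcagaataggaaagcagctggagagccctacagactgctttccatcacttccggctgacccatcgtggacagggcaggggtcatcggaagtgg
In Stag3 the E-box ended 165 bases before the start base and TCCCGC crossed it, from -2 to 3. In Sycp3 the E-boxes lay at -64 to -59 and -43 to -38. In Sycp1, the only printed window with all 4 motifs, CACGTG lay at -94 to -89 and TCCCGC at 2 to 7, and the Sycp2 window held no match.

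Meiotic prophase transcripts were present in all 3 groups, including PTC, the culture with GDNF. In PTC 3 of the 33 genes had a mean of at least 100 CPM, 9 lay between 20 and 100, 12 between 5 and 20 and 8 between 1 and 5. The last 1, below 1 CPM, was Meikin, a meiotic kinetochore protein, which had 3 counts in each PTC library and 0 in the NTC and LOVA libraries. Per kilobase of exon, the PTC means were highest for Stag3 at 86.5 CPM per kb, Syce2 at 53.4, Tex11 at 49.0, Sycp3 at 44.6 and Syce1 at 35.5. On that scale Stag3 lay above 97.2% of the tested genes in PTC, and Spo11 and Terb1 above 17.8% and 11.7%.

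**Figure D1:**
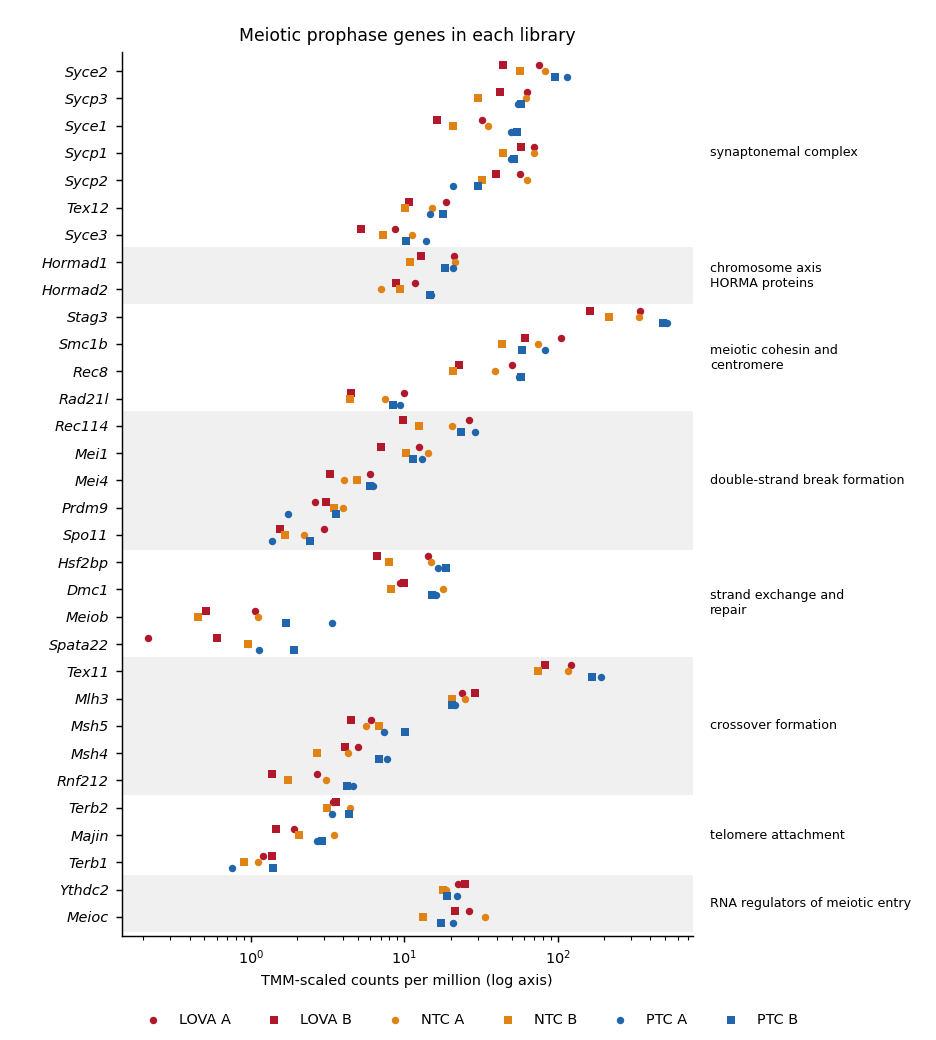
TMM-scaled CPM of the 32 tested meiotic prophase genes in each library (log axis), grouped by role and ordered within a role by PTC mean, with circles for A and squares for B libraries. Stag3 lies between 162 and 509.8 CPM, and in most genes the A library of LOVA and of NTC lies above its B library.

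Synaptonemal complex genes differed in where the GDNF-free libraries lay. Sycp1, the transverse filament protein that bridges the homologues, had 70.1 and 57.6 CPM in LOVA A and B, 69.8 and 43.5 CPM in NTC and 49.7 and 51.9 CPM in PTC. Sycp2, a lateral element protein, had 56.6 and 39.5 CPM in LOVA, 63.3 and 32.1 CPM in NTC and 20.9 and 30.3 CPM in PTC. Both NTC and both LOVA libraries lay above both PTC libraries for Sycp2, although NTC B exceeded PTC B by little. Sycp3, which forms lateral elements with SYCP2, had 63.3 and 42.2 CPM in LOVA, 61.6 and 30.3 CPM in NTC and 55.2 and 57.6 CPM in PTC, so the groups overlapped. The exons of Sycp3 share 660 of 1264 bases with Chpt1 on the opposite strand, and whether the counting used strand is not given in the sources used here.

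Of the central element genes, 2 of 4 lay apart from PTC in both comparisons and none passed the edgeR threshold in either. Of all genes tested, 38.5% had both NTC libraries below both PTC libraries and 39% had them above. For LOVA those shares were 37.9% and 38.4%. Syce1 had 32.0 and 16.2 CPM in LOVA, 35.3 and 20.6 CPM in NTC and 49.4 and 54.4 CPM in PTC. Syce2, which with TEX12 builds the filament of the central element, had 75.8 and 43.7 CPM in LOVA, 82.5 and 56.6 CPM in NTC and 114 and 95.6 CPM in PTC. For both genes each NTC and each LOVA library lay below both PTC libraries. Syce3 had 8.75 and 5.24 CPM in LOVA, 11.1 and 7.28 CPM in NTC and 13.9 and 10.2 CPM in PTC, apart from PTC in LOVA but not in NTC. Tex12 had 18.8 and 10.7 CPM in LOVA, 15.2 and 10.0 CPM in NTC and 14.6 and 17.9 CPM in PTC, with overlap.

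Of the HORMA-domain axis proteins, Hormad1, which recruits repair and surveillance factors to unpaired axes, had 20.9 and 12.8 CPM in LOVA, 21.3 and 10.9 CPM in NTC and 20.9 and 18.4 CPM in PTC. Hormad2, its paralog in the surveillance of unpaired chromosomes, had 11.7 and 8.85 CPM in LOVA, 7.0 and 9.40 CPM in NTC and 14.8 and 14.7 CPM in PTC. The libraries overlapped for Hormad1, while for Hormad2 all 4 libraries without GDNF lay below both PTC libraries.

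The meiotic cohesin subunits replace mitotic ones in the ring that holds sister chromatids. Stag3, on chromosome 5 from 138280240 to 138312393, had 344 and 162 CPM in LOVA, 339 and 214 CPM in NTC and 509.8 and 482 CPM in PTC. It supplied on average 26.4% of the counts of all 33 genes in LOVA, 30.5% in NTC and 37.1% in PTC. Rec8, a kleisin, had 50.1 and 22.9 CPM in LOVA, 39.0 and 20.7 CPM in NTC and 55.5 and 57.7 CPM in PTC, also below PTC in both other groups. Rad21l, the other meiotic kleisin, had 9.96 and 4.47 CPM in LOVA, 7.48 and 4.44 CPM in NTC and 9.33 and 8.43 CPM in PTC. Smc1b, the SMC1 of meiotic cohesin, had 104 and 60.9 CPM in LOVA, 73.8 and 43.1 CPM in NTC and 82.5 and 58.0 CPM in PTC, with LOVA A the highest and NTC B the lowest library.

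Of the genes of double-strand break formation, Spo11 and Prdm9 rested on few counts. Spo11, the enzyme that cuts the DNA, had 2.99 and 1.55 CPM in LOVA, 2.23 and 1.67 CPM in NTC and 1.38 and 2.43 CPM in PTC, from 193 counts in all 6 libraries. Prdm9, the histone methyltransferase that marks the sites of breaks, had 2.63 and 3.09 CPM in LOVA, 3.98 and 3.48 CPM in NTC and 1.75 and 3.58 CPM in PTC. Neither gene separated PTC from another group. Mei1, required for the breaks in mouse, had 12.5 and 7.04 CPM in LOVA, 14.2 and 10.3 CPM in NTC and 13.03 and 11.3 CPM in PTC. Mei4, a partner of REC114 on the axis, had 5.98 and 3.26 CPM in LOVA, 4.06 and 4.90 CPM in NTC and 6.26 and 6.00 CPM in PTC, below both PTC libraries in each of the other 4. Rec114 had 26.5 and 9.79 CPM in LOVA, 20.4 and 12.4 CPM in NTC and 28.6 and 23.2 CPM in PTC, and 344 of its 1277 exon bases lie opposite Nptn.

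Proteins of strand exchange and repair coat the single strands at breaks and find the homologue. Dmc1, the meiotic recombinase, had 9.32 and 9.88 CPM in LOVA, 17.9 and 8.25 CPM in NTC and 15.97 and 15.03 CPM in PTC, with both LOVA libraries below both PTC libraries and NTC on either side. Hsf2bp, which brings BRCA2 to meiotic breaks, had 14.2 and 6.62 CPM in LOVA, 14.96 and 7.99 CPM in NTC and 16.5 and 18.8 CPM in PTC; 54 of its exon bases are shared with Rrp1b on the opposite strand. Both groups without GDNF lay below PTC for Hsf2bp. Meiob, a single-strand binding protein, had 1.07 and 0.515 CPM in LOVA, 1.11 and 0.451 CPM in NTC and 3.38 and 1.70 CPM in PTC, from 21, 21 and 94 counts in LOVA, NTC and PTC. Its partner Spata22 had 0.213 and 0.601 CPM in LOVA, 0.955 and 0.966 CPM in NTC and 1.13 and 1.92 CPM in PTC, from 10, 27 and 63 counts, and is uncertain because 1025 of its 1274 exon bases belong also to Gm49340 on the same strand.

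Among crossover genes, Tex11, an X-linked gene needed for crossovers in males, lies on chromosome X from 100838648 to 101059667. It had 122 and 82.0 CPM in LOVA, 117 and 74.0 CPM in NTC and 189 and 166 CPM in PTC, with all 4 libraries without GDNF below both PTC libraries. Msh4 and Msh5 form the MutS dimer that stabilises crossover intermediates. Msh4 had 4.98 and 4.12 CPM in LOVA, 4.30 and 2.71 CPM in NTC and 7.77 and 6.81 CPM in PTC. Msh5 had 6.05 and 4.47 CPM in LOVA, 5.65 and 6.83 CPM in NTC and 7.39 and 10.1 CPM in PTC. Both lay below PTC in each of the other groups. Rnf212, a ring-finger protein that selects crossover sites, had 2.70 and 1.37 CPM in LOVA, 3.10 and 1.74 CPM in NTC and 4.64 and 4.22 CPM in PTC, placed like Msh4. Mlh3, which helps cut the intermediates into crossovers, had 23.8 and 29.0 CPM in LOVA, 24.99 and 20.3 CPM in NTC and 21.3 and 20.4 CPM in PTC, with both LOVA libraries above both PTC libraries.

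TERB1, TERB2 and MAJIN attach telomeres to the nuclear envelope, and their transcripts rested on 106 to 352 counts in all 6 libraries. Terb1 had 1.21 and 1.37 CPM in LOVA, 1.11 and 0.902 CPM in NTC and 0.752 and 1.41 CPM in PTC. Terb2 had 3.41 and 3.61 CPM in LOVA, 4.46 and 3.16 CPM in NTC and 3.38 and 4.39 CPM in PTC. Majin had 1.92 and 1.46 CPM in LOVA, 3.50 and 2.06 CPM in NTC and 2.69 and 2.90 CPM in PTC. None of the 3 separated NTC from PTC, and Majin lay lower in both LOVA libraries than in any other. MEIOC and YTHDC2 act together on RNA to end mitotic gene expression as meiosis begins. Meioc had 26.3 and 21.5 CPM in LOVA, 33.3 and 13.1 CPM in NTC and 20.9 and 17.4 CPM in PTC. Ythdc2 had 22.4 and 24.8 CPM in LOVA, 18.8 and 17.8 CPM in NTC and 22.1 and 19.1 CPM in PTC. Both LOVA libraries lay above both PTC libraries for each of these genes.

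In LOVA and NTC most of these genes were higher in the A than in the B library. A exceeded B in 25 of 32 genes in LOVA, in 28 in NTC and in 18 in PTC. The median ratio of A to B was 1.57 in LOVA, 1.59 in NTC and 1.05 in PTC, against 0.989, 1.00 and 0.964 over all genes tested in the same groups. By summed share of counts A stood at 1.81, 1.74 and 1.10 of B in LOVA, NTC and PTC for the meiotic prophase genes, at 1.92, 1.43 and 0.977 for the germ cell list and at 1.57, 1.39 and 1.05 for a list of 32 further meiotic genes, so A was above B in LOVA and NTC for those lists as well. The B library also had the larger feeder share in every group, as given above, and whether the feeder share takes part in these ratios was not tested.

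Summed over the 33 genes, meiotic prophase transcripts took 0.119% of counts in LOVA A, 0.0657% in LOVA B, 0.113% and 0.0652% in NTC and 0.147% and 0.134% in PTC. Every library without GDNF was below both PTC libraries. Set against the germ cell list, which shares no gene with them, the order was the other way: the ratio of summed counts was 0.407 and 0.432 in LOVA, 0.464 and 0.382 in NTC and 0.325 and 0.290 in PTC. Without Stag3 the ratio was 0.286 and 0.332 in LOVA, 0.324 and 0.265 in NTC and 0.205 and 0.182 in PTC, again with no overlap between PTC and the others. All 22 genes of the germ cell list had log2 fold changes below 0 against PTC, in NTC and in LOVA. That list was chosen with earlier results of these data known, so this count is not independent of them. The list includes Nanos3, Dppa4 and Piwil4, and the ratios depend on which genes it holds. Scaled to that list, 14604 of the 16121 genes tested were above 0 in NTC against PTC and 14467 in LOVA against PTC. A higher ratio to the list was therefore not particular to the meiotic prophase genes. These ratios are a description and were not tested.

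**Figure D2:**
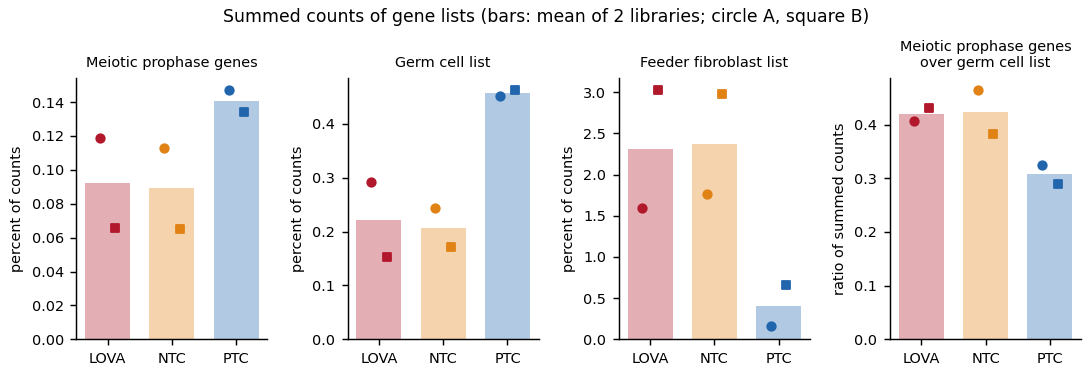
Percent of counts of the meiotic prophase genes, the germ cell list and the feeder fibroblast list, and the ratio of meiotic prophase to germ cell counts, in LOVA, NTC and PTC (bars, mean of 2 libraries; circles A, squares B). The meiotic share is highest in PTC, at 0.147% and 0.134%, while its ratio to the germ cell list is lowest there, at 0.325 and 0.290. The germ cell list itself has its highest share in PTC, at 0.451% and 0.462%.

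NTC against PTC gives what was different when GDNF was left out. Of the 32 meiotic prophase genes 1 fell and 0 rose in NTC (edgeR quasi-likelihood test, Benjamini-Hochberg adjusted p under 0.05 over all genes tested), against 12.9% of all genes called lower and 21.5% called higher. At an unadjusted p under 0.05 there were 6, of which 5 were lower and 1 higher. Of the 16121 genes tested 7752 were under it, 3355 lower and 4397 higher. DESeq2 and limma-voom each called 3 lower (Hormad2, Msh4 and Tex11), against 2601 and 2556 called lower over all genes. The gene called by edgeR was Tex11, whose log2 fold change was -0.90 (SE 0.28, 95% interval -1.57 to -0.23, adjusted p = 0.0468), or 1.86-fold lower in NTC. That call was lost without any 1 of NTC A, NTC B, PTC A or PTC B, with log2 fold changes of -1.26, -0.60, -0.80 and -0.99 and adjusted p of 0.0502, 0.255, 0.178 and 0.0989 in that order. Over all genes tested, leaving out those 4 libraries in turn gave 535, 0, 201 and 473 genes called lower, where the full fit gave 2086. With a block by column letter, which no label ties across groups, 9 of the 32 genes were called lower, against 22.5% of all genes. They were Syce1, Syce2, Hormad2, Meiob, Rec8, Msh4, Tex11, Stag3 and Rec114. In the reported fit, without that block, the median log2 fold change was -0.38 over the 32 genes and -0.02 over all genes tested, with 25 values below 0 and 7 above. The median was -0.69 without NTC A and -0.12 without NTC B. The NTC libraries lay below both PTC libraries in 16 of 32 genes (50%), against 38.5% of all genes, and above both in 1, Sycp2, against 39%.

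In the reported fit the other genes missed the threshold, with intervals that leave sizeable differences possible. Msh4 had a log2 fold change of -1.06 (95% interval -1.93 to -0.19, adjusted p = 0.062 by edgeR), Hormad2 -0.85 (-1.54 to -0.16, 0.061) and Meiob -1.70 (-3.38 to -0.03, 0.099). Syce1 was at -0.90 (-1.79 to -0.00057, adjusted p = 0.104), Rec8 at -0.93 (-1.93 to 0.08, 0.126), Rnf212 at -0.87 (-2.04 to 0.29, 0.196) and Stag3 at -0.84 (-1.72 to 0.04, 0.115). Spata22 at -0.67, Rec114 at -0.67, Hsf2bp at -0.62, Syce2 at -0.59, Rad21l at -0.58, Msh5 at -0.49 and Mei4 at -0.45 make up, with Ythdc2 at -0.17, the rest of the genes whose NTC libraries both lay below PTC. Sycp2 was on the other side, at 0.89 (0.01 to 1.78, adjusted p = 0.102).

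In 15 genes the NTC and PTC libraries overlapped. Among synaptonemal complex genes these were Syce3 at -0.39, Tex12 at -0.37, Sycp3 at -0.30 and Sycp1 at 0.16. Hormad1 was at -0.29, Smc1b at -0.27 and Dmc1 at -0.25. Break formation gave Prdm9 at 0.47, Spo11 at 0.02 and Mei1 at 0.01. Meioc was at 0.28, Mlh3 at 0.12, Terb1 at -0.12, Terb2 at -0.04 and Majin at -0.01.

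Scaled to the summed counts of the germ cell list instead of by TMM, the NTC values took the opposite sign in 23 of the 32 genes. On that scale 2 genes were higher in NTC and 0 lower, against 33.5% of all genes called higher and 0.242% called lower. They were Sycp2 (log2 fold change 1.90, SE 0.36, adjusted p = 0.023 by edgeR) and Sycp1 (1.18, SE 0.32, adjusted p = 0.034). The median was 0.65 for the meiotic genes, with 30 of 32 above 0, and 1.04 for all genes tested, a shift that this scaling puts on every gene. Relative to that shift the meiotic genes were again lower by their median, and Tex11 was at 0.12 (adjusted p = 0.758). Germ cell scaling gives values per germ cell transcript of that list, and the list itself had 11 of 22 genes called lower in NTC by TMM.

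**Figure D3:**
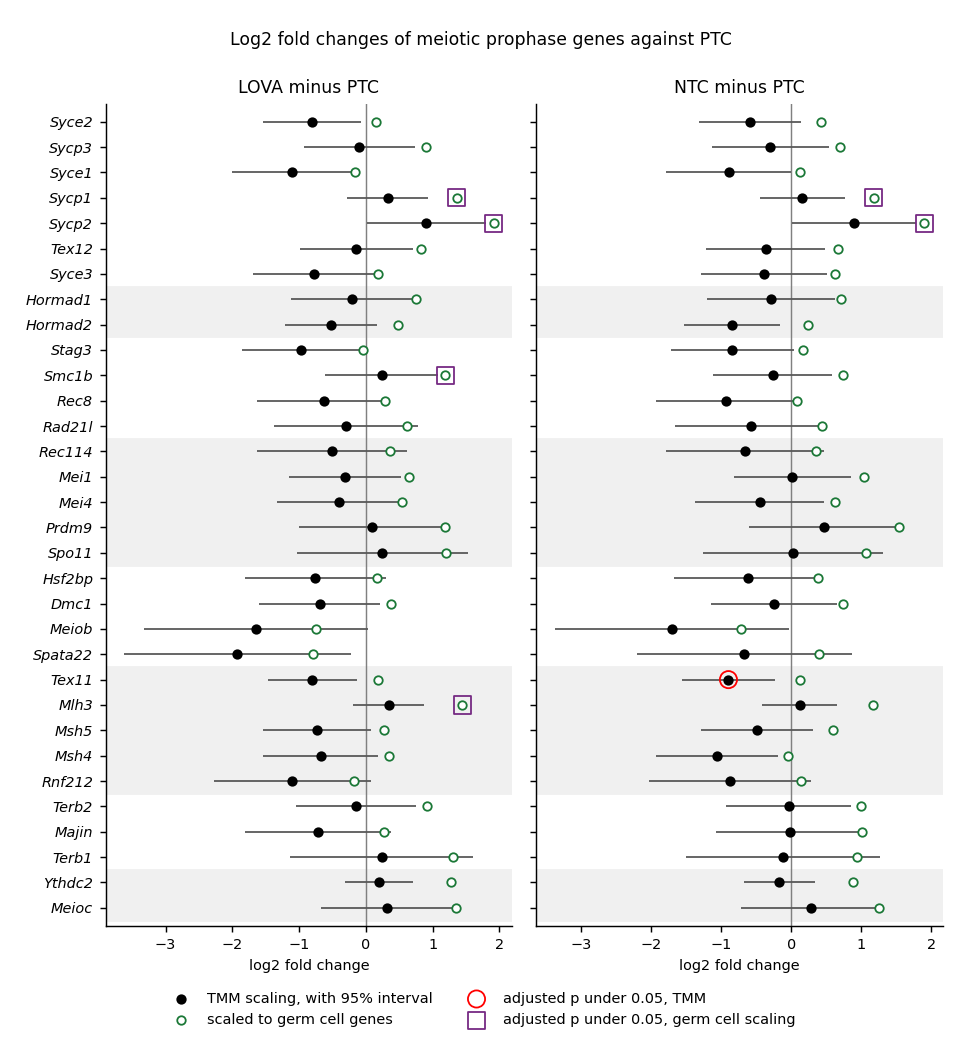
Log2 fold changes of the 32 tested genes in LOVA minus PTC (left) and NTC minus PTC (right), by TMM scaling (black points, 95% intervals) and scaled to the germ cell list (open green points), with red circles and purple squares on values past an adjusted p of 0.05. Tex11 alone is past it by TMM, in NTC minus PTC, and germ cell scaling sets most genes to the right of 0, where the median of all genes tested is 1.06 in LOVA minus PTC and 1.04 in NTC minus PTC.

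LOVA against PTC asks how cells on lovastatin compared with cells on GDNF, and uses the PTC libraries again, so its values are not independent of those just given. Of the 32 genes 0 were called higher and 0 lower by edgeR, against 19.8% and 10.8% of all genes. At an unadjusted p under 0.05 there were 6, of which 5 were lower in LOVA and 1, Sycp2, higher. Of the 16121 genes tested 7456 were under it, 3188 lower and 4268 higher. DESeq2 called 3 lower (Syce1, Tex11 and Stag3) and limma-voom called 1 (Syce1), against 2443 and 2162 called lower over all genes. With a block by column letter, which no label ties across groups, 9 were called lower, against 21.5% of all genes. They were Syce1, Syce2, Syce3, Meiob, Rec8, Tex11, Stag3, Hsf2bp and Rnf212. In the reported fit, without that block, the median log2 fold change was -0.46, against 0.00 over all genes, with 23 values below 0 and 9 above. Both LOVA libraries lay below both PTC libraries in 16 genes (50%, against 37.9% of all genes), and above them in 5, Sycp1, Sycp2, Meioc, Mlh3 and Ythdc2 (against 38.4%).

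LOVA A and LOVA B gave different pictures. Without LOVA A 7 genes were lower at the threshold and the median was -0.81, and without LOVA B there were 0 and the median was -0.11. Over all genes the counts called lower were 3174 without LOVA A, 148 without LOVA B and 1747 with both. The 7 were Syce1, Syce2, Rec8, Tex11, Stag3, Rec114 and Hsf2bp. LOVA A had the smaller feeder share, 1.59% against 3.02% in LOVA B, and the part of that difference in these counts was not tested.

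By log2 fold change in LOVA against PTC, Spata22 was at -1.92 (95% interval -3.62 to -0.23, adjusted p = 0.079 by edgeR), Meiob at -1.65 (-3.32 to 0.03, 0.112), Rnf212 at -1.10 (-2.28 to 0.07, 0.126) and Syce1 at -1.10 (-2.00 to -0.20, 0.065). The abundant genes Stag3 and Tex11 were at -0.97 (-1.85 to -0.09, 0.085) and -0.80 (-1.47 to -0.13, 0.068), and Syce2 was at -0.81 (-1.55 to -0.08, 0.084). Sycp2 was at 0.91 (0.02 to 1.79, adjusted p = 0.101), Sycp1 at 0.33 and Mlh3 at 0.34. Syce3 at -0.78, Hsf2bp at -0.76, Msh5 at -0.73, Majin at -0.72, Dmc1 at -0.69, Msh4 at -0.68, Rec8 at -0.63, Hormad2 at -0.53 and Mei4 at -0.40 were the others below both PTC libraries. In the remaining 13 the libraries overlapped or, for Meioc at 0.32 and Ythdc2 at 0.20, lay above PTC. They were Rec114 at -0.51, Mei1 at -0.31, Rad21l at -0.29, Hormad1 at -0.21, Terb2 at -0.15, Tex12 at -0.14, Sycp3 at -0.10, Prdm9 at 0.09, Smc1b at 0.23, Terb1 at 0.24 and Spo11 at 0.25.

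Scaled to the germ cell list, 4 genes were higher in LOVA than in PTC and 0 lower, against 33.1% and 0.217% of all genes. They were Sycp2 (log2 fold change 1.91, SE 0.36, adjusted p = 0.026 by edgeR), Mlh3 (1.44, SE 0.42, 0.042), Sycp1 (1.36, SE 0.32, 0.027) and Smc1b (1.19, SE 0.33, 0.037). The median of the 32 was 0.51 on that scale, with 27 above 0, and the median of all genes 1.06; 18 genes changed sign between the scalings.

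LOVA against NTC sets lovastatin against neither agent, both without GDNF. No meiotic prophase gene was called: 0 of 32 by edgeR, DESeq2 and limma-voom, and 0 at an unadjusted p under 0.05, where edgeR called 0% of all genes higher and 0% lower and 561 had an unadjusted p under 0.05. Over all genes DESeq2 called 25 higher and 95 lower in LOVA and limma-voom 0 and 4. The median log2 fold change was 0.05, against 0.01 over all genes, and ran from -0.36 without LOVA A and -0.28 without NTC B to 0.30 without LOVA B and 0.37 without NTC A. Both LOVA libraries lay above both NTC libraries in 2 genes, Terb1 and Ythdc2 (12.7% of all genes did), and below them in 3, Prdm9, Spata22 and Majin (13% of all genes). Outside the scarcest genes the intervals still left sizeable differences possible. Tex11 was at 0.10 (95% interval -0.57 to 0.76), Sycp1 at 0.17 (-0.43 to 0.78) and Stag3 at -0.13 (-1.001 to 0.75). Smc1b was at 0.50 (-0.35 to 1.36) and Ythdc2 at 0.37 (-0.14 to 0.88). Of the scarcer genes, Spata22 was at -1.25 (-3.01 to 0.50) and Majin at -0.70 (-1.81 to 0.40).

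Several members have a counterpart that works in mitotic cells, so levels per kilobase of exon were set side by side within a library. The counterparts are also used by somatic cells, and the feeder share differed between the groups. Stag3 stood 5.01 and 1.48 times as high as Stag2 in LOVA A and B, 4.67 and 3.25 times in NTC and 10.1 and 10.4 times in PTC. Against Stag1 the ratio was 5.40 and 2.54 in LOVA, 6.17 and 4.60 in NTC and 5.99 and 6.54 in PTC. Stag3 was thus above both mitotic STAG subunits in every library. Smc1b stood 1.96 and 0.878 times as high as Smc1a in LOVA, 1.54 and 0.845 times in NTC and 1.32 and 1.23 times in PTC, which put the B libraries of LOVA and NTC below 1.

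The kleisins were placed differently. Rec8 reached 0.215 and 0.117 of Rad21 in LOVA, 0.183 and 0.114 in NTC and 0.124 and 0.127 in PTC, and Rad21l 0.0756 and 0.0403, 0.0621 and 0.0432 and 0.0369 and 0.0329 in the same groups. The mitotic kleisin therefore exceeded both meiotic ones in every library.

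**Figure D4:**
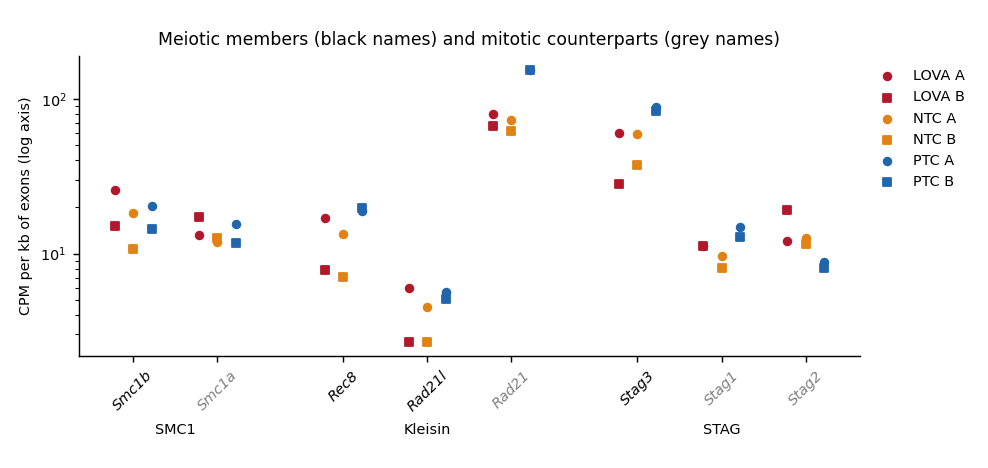
Levels per kilobase of exon (CPM per kb, log axis) of meiotic genes (black names) and mitotic counterparts (grey names) in each library, in the order LOVA, NTC and PTC within a gene (circles A, squares B). Stag3 lies above Stag1 and Stag2 in every library, and Rec8 and Rad21l lie below Rad21.

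Of the counterparts, Rad21 fell in NTC against PTC (log2 fold change -1.19, SE 0.17, adjusted p = 0.009 by edgeR) and in LOVA against PTC (-1.07, SE 0.17, 0.017). Stag1 fell in NTC (-0.65, SE 0.17, adjusted p = 0.029) and was at -0.32 in LOVA (0.182). Stag2 was at 0.52 in NTC (0.129) and rose in LOVA (0.89, SE 0.24, adjusted p = 0.035). Smc1a did not pass, at -0.15 in NTC and 0.16 in LOVA. Between LOVA and NTC none of these 4 passed, with Smc1a at 0.31, Rad21 at 0.12, Stag1 at 0.33 and Stag2 at 0.37. Over the list of 39 mitotic cohesin and recombination genes 12 fell and 0 rose in NTC against PTC, where 12.9% of all genes fell (median -0.65, with Rad54l, a recombination motor, showing the largest change among those called, -1.28, SE 0.35), and 6 fell and 2 rose in LOVA against PTC, where 10.8% fell and 19.8% rose (median -0.48, with the cohesin loader Nipbl showing the largest change among those called, 1.54, SE 0.34). None of the 39 was called between LOVA and NTC, where the most abundant, Rad21 and Msh6, were at 0.12 and 0.12 (median 0.12).

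A list of 32 further genes linked to meiotic prophase was tested in full. It is not limited to genes that act only there, as the piRNA helicases below show. Those called lower in NTC against PTC were Tdrd9, Mov10l1, Ehmt2, Mcm8, Fignl1 and Rnf212b. In NTC against PTC 6 fell and 0 rose (against 12.9% of all genes called lower; median -0.65), the largest being Tdrd9, a helicase of the piRNA pathway, with 21.6 and 12.8 CPM in NTC and 63.5 and 60.9 CPM in PTC (log2 fold change -1.85, SE 0.46, adjusted p = 0.0249 by edgeR), and Mov10l1, also a piRNA helicase (-1.29, SE 0.32, 0.0241). In LOVA against PTC 5 fell (against 10.8% of all genes) and 1 rose (median -0.70). Tdrd9 had 24.2 and 9.19 CPM in LOVA (-1.89, SE 0.46, adjusted p = 0.0275), and Zcwpw1, a reader of the marks that PRDM9 sets, was at -1.29 (SE 0.33, 0.0298). Between LOVA and NTC 0 were called (median -0.02), with the most abundant, Ehmt2 and Mov10l1, at -0.08 and 0.16. Whether this list differs from the 33 genes was not tested.

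Upstream of these genes, STRA8 and MEIOSIN switch on the meiotic programme in response to retinoic acid. Stra8 had 64.0 and 38.2 CPM in LOVA, 80.1 and 44.8 CPM in NTC and 19.9 and 61.7 CPM in PTC, with 1 PTC library below all others and 1 among them. Its log2 fold change was 0.61 in NTC against PTC (SE 0.57, adjusted p = 0.432 by edgeR), 0.32 in LOVA against PTC (SE 0.57, 0.681) and -0.29 in LOVA against NTC. Meiosin, listed as Gm4969, had 4.48 and 2.49 CPM in LOVA, 8.28 and 4.25 CPM in NTC and 5.95 and 7.24 CPM in PTC, and gave -0.08 in NTC against PTC, -0.91 in LOVA against PTC (SE 0.46, adjusted p = 0.165) and -0.83 in LOVA against NTC.

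Of 22 tested genes for meiotic entry and retinoic acid response, 6 rose and 3 fell in NTC against PTC (median 0.06), and 6 rose and 2 fell in LOVA against PTC (median 0.06). Over all genes 21.5% rose and 12.9% fell in NTC, and 19.8% rose and 10.8% fell in LOVA. The largest change was in Aldh1a1, which makes retinoic acid. It had 40.1 and 86.6 CPM in LOVA, 68.6 and 115.6 CPM in NTC and 5.20 and 7.58 CPM in PTC (log2 fold change 3.84, SE 0.47, adjusted p = 0.00859 in NTC and 3.30, SE 0.46, 0.0167 in LOVA, by edgeR). Both Aldh1a1 and the feeder list were higher in the B library of each group, and the part of the feeders in these values was not tested. Between LOVA and NTC 0 were called (median -0.18), with Dazl, a germ cell RNA-binding protein, at 0.24 and Dmrt1, a transcription factor that restrains meiotic entry, at -0.09.

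Cell type lists are read against the same shares of all genes. Those were 12.9% called lower and 21.5% higher in NTC, and 10.8% and 19.8% in LOVA. In NTC against PTC 11 of 22 germ cell genes fell and 0 rose (median -0.94), led by Nanos3 and Dppa4, and 9 of 16 genes of undifferentiated spermatogonia fell and 1 rose (median -1.41), led by Lhx1 and by Thy1, which rose. Of 12 genes of differentiating spermatogonia 3 fell (median -0.27), led by Dnmt3b and Sohlh2. Of 22 feeder genes 14 rose (median 2.80), led by Mmp2 and Dcn, and of 12 macrophage genes 12 rose (median 2.81), led by Fcer1g and Adgre1. In LOVA against PTC 9 germ cell genes fell (median -0.99, led by Dppa4 and Piwil4), 8 undifferentiated genes fell and 1 rose (median -1.15, led again by Lhx1 and Thy1), 1 differentiating gene fell (Dnmt3b), 14 feeder genes rose (median 2.72, Mmp2 and Dcn) and 2 macrophage genes rose (median 0.70, Adgre1 and Lyz2). The feeder and macrophage shares of counts were higher in both groups without GDNF than in PTC. In LOVA, however, the macrophage genes called higher (16.7%) did not exceed the 19.8% of all genes. The part of these shares in the values of the meiotic genes was not tested. Between LOVA and NTC edgeR called 0 genes of any of these lists, and all 12 macrophage genes lay lower in both LOVA libraries (median -2.21).

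**Figure D5:**
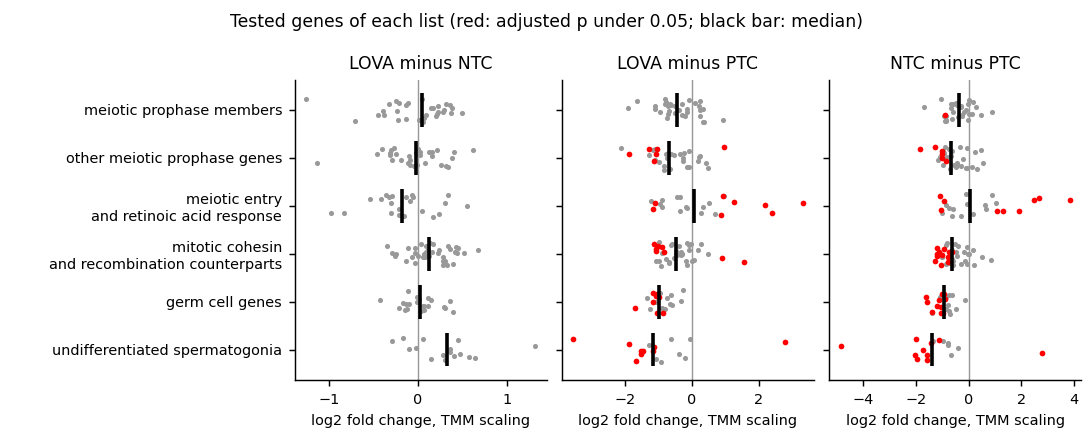
Log2 fold changes (TMM scaling) of the tested genes of 6 lists in LOVA minus NTC, LOVA minus PTC and NTC minus PTC, 1 point a gene, red where the edgeR adjusted p is under 0.05, with a black bar at the median. The meiotic prophase genes have 1 red point, Tex11 in NTC minus PTC, and medians of 0.05, -0.46 and -0.38 from left to right.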

How the data were processed

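RNA of 6 libraries in 3 groups of 2 was analysed from the authors' deposited table of raw counts per gene, whole numbers with no normalization. The submitters' processing notes name Trimmomatic, Bowtie2, RSEM, DESeq2 and mm10, without roles or versions; whether the counts are rounded RSEM estimates, and whether counting used strand, is not given in the sources used here. Symbols, coordinates and exon lengths were taken from GENCODE M21 (31363 identifiers matched, 21 not). Column names give the group and a letter, and nothing ties letters to the numbers in the labels.

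Genes were kept by filterByExpr (16121 of 31384; 7358 had no count), scaled by TMM and fitted over all 6 libraries with 1 coefficient per group in edgeR 4.0.16 (R 4.3.3), by robust quasi-likelihood F tests with Benjamini-Hochberg adjustment over all genes tested and a threshold of 0.05. The fit had 3 residual degrees of freedom and a common biological coefficient of variation of 0.260. SE came from the log2 fold change and F. With 2 libraries a group, an exact permutation test of a single gene (two-sided) cannot give a p below 0.333, so none was run. The 2 libraries of a group differed by more than counting noise.

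Alternatives were DESeq2 size factors, scaling to 22 germ cell genes, no filter, DESeq2 1.42.0, limma-voom (limma 3.58.1), fits of 2 groups, a block by column letter and leaving out each library. Of these fits, only the reported edgeR fit was also run on simulated counts with known changes. Those counts held no difference in feeder share between groups. Its recovery of changes is not given here, so that run does not show the power to detect differences of the sizes reported. Promoter sequences came from RefSeq, GRCm38.p6. The 33 genes and all lists were chosen with earlier results of these data known. Every one of the 33 is named; of other lists the 2 called genes with the largest change per comparison are named, or the 2 most abundant where none was called, with mitotic cohesin counterparts, Stra8, Meiosin, Ret and Gfra1 added; some genes this rule names are not reported here. Sertoli and Leydig cell lists took at most 0.00667% and 0.000807% of counts in any library.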

Additional observations from a re-analysis of the deposited data

How the results depend on the processing

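The count of meiotic prophase genes called higher in NTC than in PTC, 0 by edgeR with TMM, was 2 when scaled to germ cell genes and 1 (Sycp2) with no filter on low counts. The count called lower, 1, was 0 with germ cell scaling, 6 with no filter, 3 with DESeq2, 3 with limma-voom, 4 in the fit of the 2 groups, and 0 to 4 when 1 library was left out. Over all genes, germ cell scaling gave 5407 higher and 39 lower, and no filter 3905 and 2826. DESeq2 called 2601 of all genes lower, limma-voom 2556 and the fit of the 2 groups 3103. For the meiotic prophase genes the median log2 fold change, -0.38, was 0.65 with germ cell scaling and ran from -0.69 to -0.12 without 1 library. In LOVA against PTC the count called higher, 0, was 4 with germ cell scaling and 1 with no filter; the count called lower, 0, was 4 with no filter, 3 with DESeq2, 1 with limma-voom and 0 to 7 without 1 library, and the median, -0.46, was 0.51 with germ cell scaling and -0.81 to -0.11 without 1 library. LOVA against NTC gave 0 calls under every alternative run, with medians from -0.36 to 0.37. Over all genes in LOVA against PTC, germ cell scaling gave 5335 higher, and no filter 3631 higher and 2703 lower. DESeq2 called 2443 of all genes lower there and limma-voom 2162. Germ cell scaling also turned Tex11 to 0.12 and Stag1 to 0.40 in NTC against PTC, and the median of all genes to 1.04. The causes of these shifts were not tested.

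With a replicate block by column letter, 9 of 32 genes were called lower in NTC and 9 in LOVA against PTC (22.5% and 21.5% of all genes), and 0 between LOVA and NTC. Deviations of B from A correlated across genes, at 0.37 for LOVA and NTC, 0.29 for LOVA and PTC and 0.25 for NTC and PTC, but a group has only 2 letters and no label ties them, so they were not taken as pairs.

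Over all genes, calls in NTC against PTC ran from 1 to 5407 higher and 0 to 3632 lower over the alternatives (3472 and 2086 in the reported fit), in LOVA against PTC from 628 to 5335 and 35 to 3466 (3192 and 1747), and in LOVA against NTC from 0 to 44 and 0 to 147 (0 and 0).

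Meikin, Spata22, Terb1 and Meiob rest on the fewest counts of the 33 genes, 6, 100, 106 and 136 over all libraries. With 2 libraries a group, a value missing the threshold does not show that groups were alike.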

Other observations

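Repressors of germline genes were measured beside the meiotic prophase genes. Of 24 genes of PRC1.6 and DNA methylation, all tested, 9 fell and 1 rose in NTC against PTC (median log2 fold change -0.66), where 12.9% of all genes fell and 21.5% rose. In LOVA against PTC 9 fell and 0 rose (median -0.66), against 10.8% and 19.8% of all genes. Of the factors named with the promoter motifs, picked here after their values were seen, E2f6 fell in both comparisons (-0.77, SE 0.20, edgeR adjusted p = 0.028 in NTC and -0.73, SE 0.20, 0.036 in LOVA). Max was at 0.59 in NTC (adjusted p = 0.0505 by edgeR) and 0.56 in LOVA (0.0612), with both libraries of each group above both PTC libraries, and Mga at -0.19 and 0.22. Mybl1, named with TAACGG and no member of this list, was at 0.90 in NTC against PTC (SE 0.31, edgeR adjusted p = 0.059). It rose in LOVA against PTC (1.25, SE 0.31, edgeR adjusted p = 0.028), and both libraries of each group lay above both PTC libraries. Stra8 and Meiosin are given above. Dnmt3b, a de novo DNA methyltransferase, had 65.3 and 35.1 CPM in LOVA, 79.7 and 49.1 CPM in NTC and 135 and 141 CPM in PTC (log2 fold change -1.10, SE 0.34, edgeR adjusted p = 0.0456 in NTC and -1.46, SE 0.35, 0.0261 in LOVA). Dnmt1, which copies methylation at replication, fell by 1.02 in NTC against PTC (SE 0.27, adjusted p = 0.028 by edgeR). Dnmt3l, a germ cell cofactor of the de novo enzymes, fell by 1.99 in LOVA against PTC (SE 0.49, adjusted p = 0.0283 by edgeR). Scaled to the germ cell list the medians were 0.40 and 0.40, with 2 and 3 genes higher and 0 lower, where 33.5% and 33.1% of all genes were higher and their medians were 1.04 and 1.06. Between LOVA and NTC 0 of the 24 were called (median 0.03), with the abundant Trim28 and Dnmt1 at 0.09 and -0.07.

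Genes of pachytene and later spermatogenesis were unequal in level. Of 27, 12 passed the filter, and the list took 0.00479% and 0.00348% of counts in LOVA, 0.00450% and 0.00327% in NTC and 0.00848% and 0.00767% in PTC. Prm1 and Prm2, the protamines of sperm chromatin, were at 0 counts in every library. Clgn, a chaperone of spermatocytes and spermatids, had 12.4 and 9.54 CPM in LOVA, 13.4 and 8.70 CPM in NTC and 25.3 and 26.4 CPM in PTC (log2 fold change -1.23, SE 0.30, adjusted p = 0.023 in NTC and -1.24, SE 0.30, 0.0265 in LOVA, by edgeR). Piwil1, a piRNA-binding protein of spermatocytes, fell by 1.16 in NTC against PTC (SE 0.37, adjusted p = 0.0477 by edgeR). Those called lower were thus 2 of the 12 tested in NTC (16.7%, against 12.9% of all genes). In LOVA 1 of the 12 was called lower (8.33%, against 10.8% of all genes), and 0 were called higher in either comparison. These shares are close to those of all genes. None of the 12 was called between LOVA and NTC.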
